A study of Homo sapiens with 9 samples.

Results

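The comparison described here is that of the 2nd FBXL12 knockout clone of MDA-MB-231 cells (KO2, labelled FBXL12-KO #2) with the control cells (WT, labelled FBXL12-WT). Its members are the 6 libraries that carry these labels, of 9 in the study, with 3 in each group. MDA-MB-231 is an established human basal-like breast cancer line. The WT cells had been transduced with a scrambled guide RNA that targets no gene. The other 3 libraries come from a first knockout clone (KO1) and are used here to see where KO2 stands apart. No drug, dose or time is given for any group, so the cells are compared without an added treatment. A clone descends from 1 cell, so the comparison sets 1 clone against 1 control population, and what belongs to the loss of FBXL12 and what belongs to this clone cannot be told apart. Whether the 3 libraries of a group are separate cultures is not given in the labels; the p-values then reflect the spread among these libraries alone, and that spread may be technical. In such bulk RNA, fewer cells of a kind and less RNA per cell cannot be told apart.

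FBXL12 is an F-box protein. F-box proteins are the part of SCF ubiquitin ligases that binds a substrate, which is then marked with ubiquitin and often degraded. FANCD2, which the study names as a substrate, is monoubiquitinated at stalled replication forks and crosslinks. Several other pathways that come up below have their own regulators. NRF2 (gene NFE2L2) is a transcription factor that KEAP1 holds at a low level by presenting it to another ubiquitin ligase; when it escapes, it binds antioxidant response elements and switches on genes for glutathione, thioredoxin and NADPH supply. Interferon-stimulated genes are switched on through interferon-stimulated response elements, which bind complexes that include STAT2 and IRF9 or related factors.

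The KO2 libraries held 52427841 to 65630781 counts and the WT libraries 61685262 to 97243363. On the scale of log2 CPM, read counts scaled to a common library size with TMM factors, the first principal component held 52.1% of the variance and set KO2 (59.6 to 67.4) apart from WT (-25.8 to -24.2) and KO1 (-38.4 to -37.4). Levels are given as CPM and changes as the log2 difference of KO2 minus WT with its standard error (SE). A gene is said to have risen or fallen where edgeR's quasi-likelihood test gave a Benjamini-Hochberg adjusted p under 0.05 over all 17759 genes that passed the filter on low counts, of 61155 in the tables. Of 12 tested markers of breast cancer lines, 4 rose and 6 fell in KO2, with a median change of -0.17. Vimentin stood at 2811 CPM in WT and 3331 in KO2, and the estrogen receptor gene ESR1 had 1 to 14 counts in every library.

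FBXL12 itself was lower in every KO2 library. It stood at 22.2, 23.4 and 21.4 CPM in the WT libraries and 6.14, 6.36 and 5.33 in the KO2 libraries, against a mean of 9.64 in KO1. The groups did not overlap, the log2 difference was -1.91 ± 0.08 (SE, n = 3 and 3; edgeR adjusted p = 7.29e-11), and the log2 difference of KO2 minus KO1 was -0.70. FANCD2 fell by 0.25 ± 0.05 (adjusted p = 0.000794), from 71.2, 66.4 and 67.7 CPM in WT to 54.9, 57.1 and 61.02 in KO2. It lies on chromosome 3 in a run of 40 neighbouring genes (such blocks are described below) with a median change of -0.44, and in KO1 its mean was 77.4 CPM.

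In all, 8776 genes were called between KO2 and WT, 49.4% of those tested: 4382 rose (24.7%) and 4394 fell (24.7%), with a median change over all genes of -0.01. The 3 KO2 and 3 WT libraries did not overlap in CPM in 58.8% of genes. With the trend of change with GC content removed, 30.1% rose and 25.1% fell. Large changes were fewer: 1062 genes rose at least 2-fold (5.98%) and 669 fell at least 2-fold (3.77%), and at least 16-fold changes numbered 29 up and 46 down. Between the 2 clones, 4426 genes were higher in KO2 (24.9%) and 4253 lower (23.9%). That last contrast takes no WT level into the difference and is the test of whether the clones differ. The WT libraries do enter its p-values, through the shared estimate of the spread. The changes of KO1 and KO2 from WT share the 3 WT libraries, so they are given side by side below and not correlated; 34.8% of genes were called between KO1 and WT. With nearly 1 gene in 2 called, a count of called members in any list or region has to be read beside the 24.7% in each direction.

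Neighbouring genes often moved together in KO2. When the 10039 tested protein-coding genes with a mean of at least 2 on the log2 CPM scale were cut into 252 consecutive blocks of 40 genes (21 to 59 in the last block of a chromosome; positions from GENCODE 29, GRCh38), 28 blocks had a median change at or under -0.3 in KO2 and 12 at or over 0.3. With the trend of change with GC content removed, these counts were 24 and 14. Some of the low blocks were as low in KO1, such as DEF6 to TBCC on chromosome 6, at -0.36 in both clones. Chromosomes 15 and 18 were low in KO2 almost along their whole length. On chromosome 15 the median change of 326 genes was -0.46 and 92.0% lay below 0; 279 of them fell and 15 rose. On chromosome 18 the median of 152 genes was -0.40, with 116 down and 6 up. In KO1 the same chromosomes had medians of 0.20 and 0.23. Chromosome 2 went the other way in KO2: the median of its 701 genes was 0.19, and 382 rose while 111 fell. It was not even along its length: the block IMMT to MRPL30 (86143932 to 99197626) had a median of -0.59 in KO2, with 36 of 40 genes down and 1 up, and 0.07 in KO1. What sets the level of a whole stretch of genes was not tested.

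**Figure D1:**
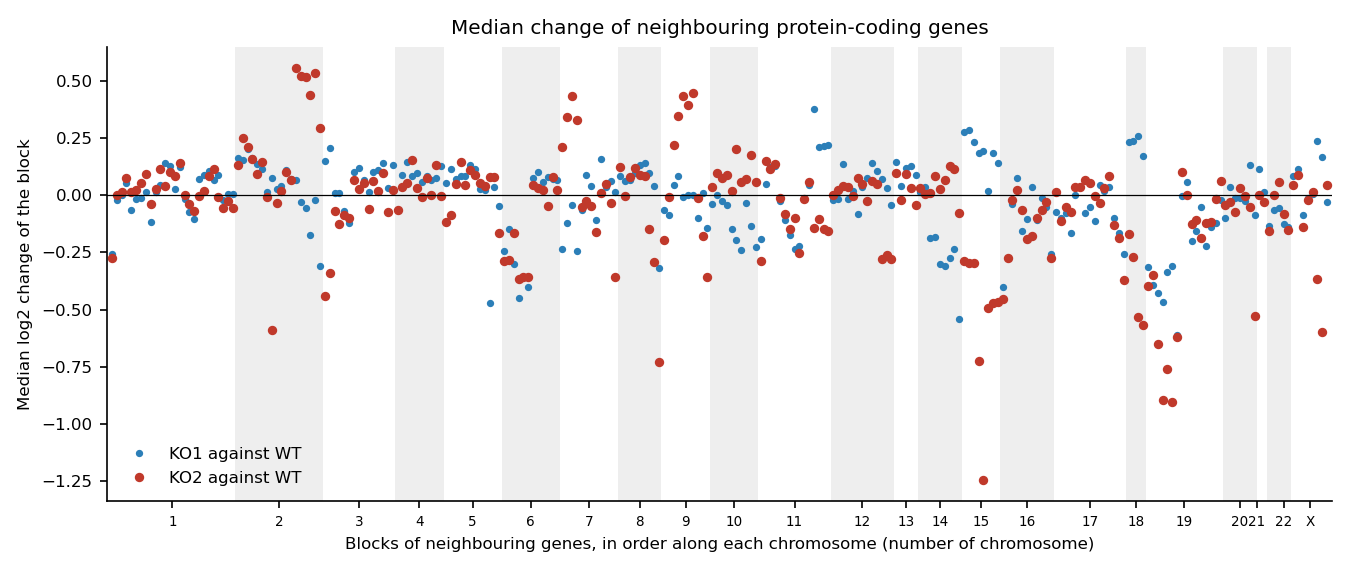
Median log2 change from WT of each block of consecutive genes (40, or 21 to 59 at a chromosome's end) along the genome, in KO2 (red) and KO1 (blue); each point is 1 of 252 blocks. The KO2 medians run from -1.24 on chromosome 15 to 0.56 on chromosome 2.

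The lowest block lay on chromosome 15 (64364311 to 71053657, PCLAF to LRRC49). All 40 of its genes fell, by a median of 1.24, which is 0.422 of the WT level, and all 40 were also below KO1. In the 3 KO2 libraries the block's median distance to the WT mean was -1.20, -1.25 and -1.28, against -0.01 to 0.02 in the WT libraries. Gene by gene, the drop began and ended abruptly, at edges that were picked after the values were seen and are therefore given without a test. From FAM214A to CCNB2 the median of 20 genes was -0.40. From MYO1E to ZWILCH (59132434 to 66550128) the median of 44 genes was -1.37, a fold of 0.386, and each of the 44 fell, by between 0.57 and 1.95. From SMAD3 to LRRC49 the median of 16 genes was back at -0.49. At the first edge CCNB2, the gene of cyclin B2, changed by -0.38 and MYO1E, the next gene of the run, by -1.18. At the other edge ZWILCH, a kinetochore protein gene, changed by -1.37 and SMAD3, which carries TGF-beta signals, by -0.33. In KO1 the median of the 44 genes was 0.19 above WT.

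The stretch holds genes of unrelated work. MAP2K1, the kinase MEK1 that activates ERK, stood at 139, 141 and 144 CPM in the WT libraries and at 54.3, 54.1 and 53.1 in the KO2 libraries. SPG21, a gene of endosomal traffic, went from 174, 174 and 176 to 66.3, 65.6 and 63.6 CPM. In both genes the libraries of a group lay close together and the groups did not overlap; KO2 kept 38.05% and 37.2% of the WT mean. ANXA2, a membrane-binding annexin, went from 3639 to 1683 CPM, and RPL4, a protein of the large ribosomal subunit, from 2365 to 873. TPM1, a tropomyosin of actin filaments, went from 102 to 32.5, PPIB, a prolyl isomerase of the endoplasmic reticulum, from 152 to 42.9, and the small GTPase genes RAB8B and RAB11A from 143 to 55.95 and from 196 to 81.6. CA12, a carbonic anhydrase, had the mildest fall of the 44, -0.57, and RPS27L the deepest, -1.95.

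**Figure D2:**
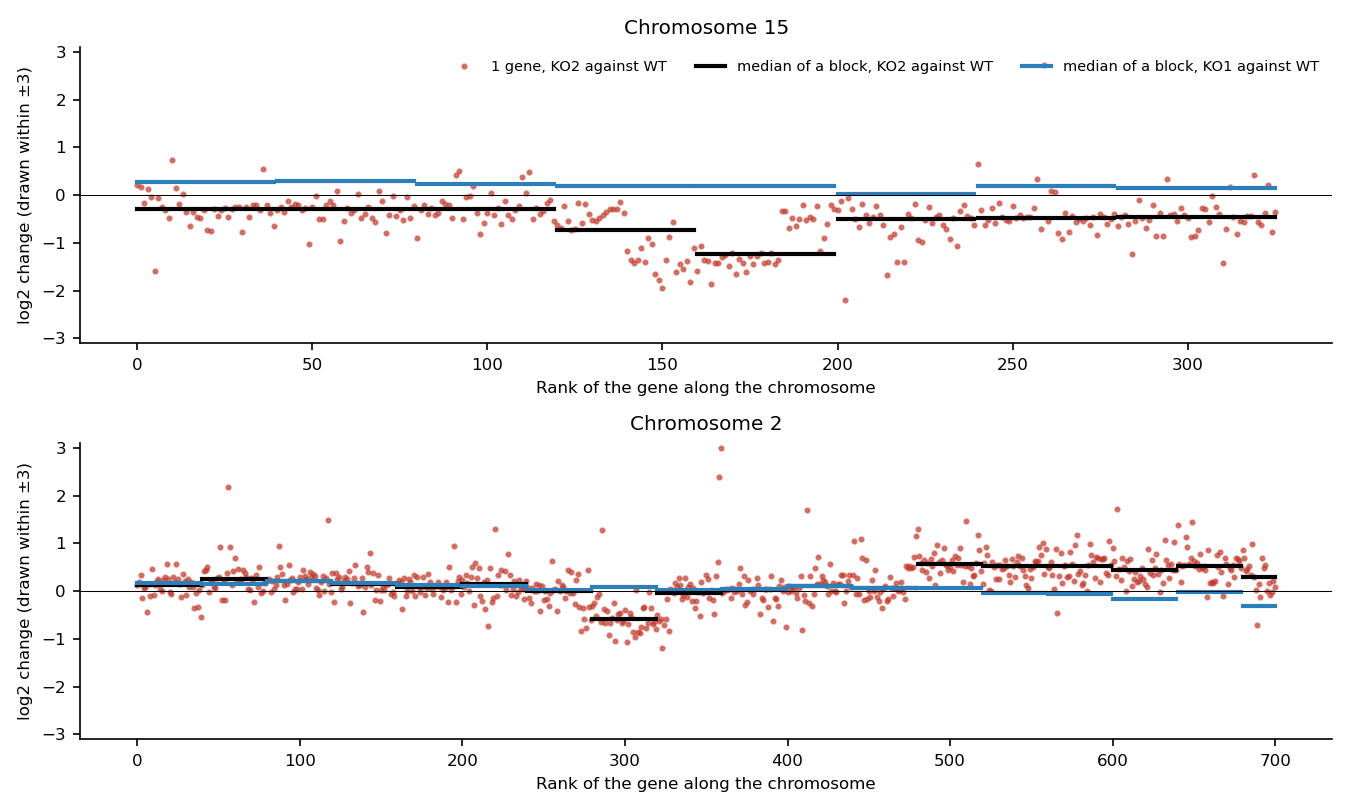
Log2 change KO2 minus WT of single genes (red dots) along chromosomes 15 and 2 in gene order, with the block medians of KO2 (black lines) and KO1 (blue lines). On chromosome 15 the block medians of KO2 reach -1.24, and on chromosome 2 the 5 blocks from WIPF1 to ILKAP lie between 0.44 and 0.56.

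Chromosome 19, which carries FBXL12 and KEAP1, was low over several blocks. The block RPS28 to YIPF2 (8321158 to 10928681), which holds FBXL12 (9810267 to 9827816, minus strand), had a median of -0.89, with 33 genes down and 3 up. Its median was -0.47 in KO1. The block CCDC130 to MYO9B (13731760 to 17214537) had a median of -0.90, with 36 down and 0 up, against -0.31 in KO1. Removing the trend of change with GC content brought these medians to -0.66 and -0.59, and that of the chromosome from -0.26 to -0.03, while the lowest block of chromosome 15 stayed at -1.25. Members of the low blocks include TPM4, a tropomyosin gene (2412 CPM in WT, 993 in KO2 and 4219 in KO1), and RAB8A (116 to 53.05). KRI1, needed for ribosome assembly, changed by -1.16 ± 0.05.

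Genes along the far part of chromosome 2 were higher in KO2. In the block WIPF1 to NAB1 (174559572 to 190692766) 38 of 40 genes rose and 0 fell, with a median of 0.56, or 1.47-fold. Its library medians were 0.55, 0.54 and 0.61 in KO2, and its median in KO1 was 0.07. The block DOCK10 to ILKAP followed, with a median of 0.53 and 37 genes up. CASP8, the initiator caspase of death receptors, in another of the high blocks there, went from 32.7 to 61.7 CPM. DOCK10, an activator of small GTPases, rose by 1.38 and WIPF1, a partner of the actin regulator WASP, by 1.30. NFE2L2, taken up with its pathway below, lies in the block WIPF1 to NAB1.

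Most genes of the NRF2 pathway rose in KO2. Of 28 tested members of the list of NRF2 targets and regulators, 21 rose, 1 fell and 6 were not called, a share of 75% up beside the 24.7% of all genes. The median change was 0.56, against -0.01 over all genes and 0.03 for these members in KO1. Against KO1, 21 were higher in KO2 and 2 lower. The gene that fell was KEAP1, the inhibitor; under some of the alternative settings a second member was called down. The list's summed level was 4075 to 4282 CPM in WT, 3959 to 4024 in KO1 and 5429 to 5751 in KO2.

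KEAP1 stood at 109, 128 and 115 CPM in the WT libraries and at 66.03, 69.4 and 65.4 in the KO2 libraries, with no overlap, a log2 difference of -0.81 ± 0.07 (adjusted p = 4.87e-07). It lies in the low block of chromosome 19 whose median was -0.89, its mean in KO1 was 84.6 CPM, and the difference of KO2 minus KO1 was -0.34. NFE2L2, which encodes NRF2, stood at 109, 111 and 118 CPM in WT and 179, 178 and 184 in KO2, a difference of 0.68 ± 0.05. It lies in the high block of chromosome 2 whose median was 0.56. At the RNA level the inhibitor fell and the activator rose, and each lies in a block that moved the same way. Whether either change bears on the targets was not tested. Among the 25 members outside any block with a median at or past 0.3, a split chosen after the data were seen, 19 rose and 0 fell, with a median of 0.59.

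Many of the NRF2 targets supply thiols. GCLM, the regulatory subunit of the enzyme that starts glutathione synthesis, stood at 48.9, 47.7 and 52.2 CPM in WT and 110, 112 and 114 in KO2 (85.6 in KO1). TXNRD1, thioredoxin reductase, stood at 545, 529 and 534 and 926, 928 and 944. The groups did not overlap for either gene, and the changes were 1.18 ± 0.05 and 0.80 ± 0.04. GCLC, the catalytic partner of GCLM, rose by 0.30, TXN, thioredoxin, by 0.27, GSR, glutathione reductase, by 0.33, and SLC7A11, which imports cystine, by 0.70. TXN lies in the high block ABCA1 to TMEM268 of chromosome 9, whose median was 0.39.

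Others make NADPH or detoxify quinones, carbonyls and haem. NQO1, a quinone reductase, stood at 197, 198 and 191 CPM in WT, 319.8, 316 and 296 in KO2 and a mean of 202 in KO1, a rise of 0.67 ± 0.04 in KO2. ME1, the cytosolic malic enzyme, rose by 1.08 ± 0.07 in KO2, from 15.2, 14.03 and 15.4 to 31.6, 30.6 and 32.1 CPM, and its change in KO1 was -0.36. PGD, an NADPH-yielding enzyme of the pentose phosphate pathway, rose by 0.53, and HMOX1, haem oxygenase, by 0.90. The aldo-keto reductase genes AKR1C1, AKR1C2 and AKR1C3 rose by 2.18, 1.77 and 1.39; they are near copies of each other, so reads may be split among them. AKR1B10 rose by 3.34 ± 0.75, but 1 KO2 library, at 2.37 CPM, stood above the others at 0.478 and 0.546. The 6 members without a call were TALDO1 (0.04), TKT (-0.13), FTH1 (-0.46), PRDX1 (-0.09), ABCC2 (0.24) and UGDH (0.10).

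To show what lies next to the start of these genes, windows from 250 bases before to 50 bases after the RefSeq start (GRCh38.p14) were searched on both strands for the antioxidant response element TGACNNNGC, whose first letters are shared with the AP-1 site TGANTCA. Of 27305 windows, 13.6% held a match. Windows matched 20 of the 28 members, and 15 of these 20 were members that rose. A match lay in 4 of the 20 windows, all of them among the 15. The 4 are shown 5′ to 3′ on the gene's strand, with 20 bases on each side and the match in capitals; it reads in the opposite direction in GCLM and PGD.
GCLM, chr1:93909436-93909484, minus strand: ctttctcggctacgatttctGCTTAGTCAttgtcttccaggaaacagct
TXNRD1, chr12:104215660-104215708, plus strand: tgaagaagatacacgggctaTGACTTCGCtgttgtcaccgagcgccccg
ME1, chr6:83431160-83431208, minus strand: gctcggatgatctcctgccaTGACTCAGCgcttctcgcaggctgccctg
PGD, chr1:10398843-10398891, plus strand: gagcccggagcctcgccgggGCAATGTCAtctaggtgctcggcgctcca
A match is a description of letters, not a bound site. The share among the members' windows is 20%, near the 13.6% of all windows, and elements farther from the start were not searched.

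**Figure D3:**
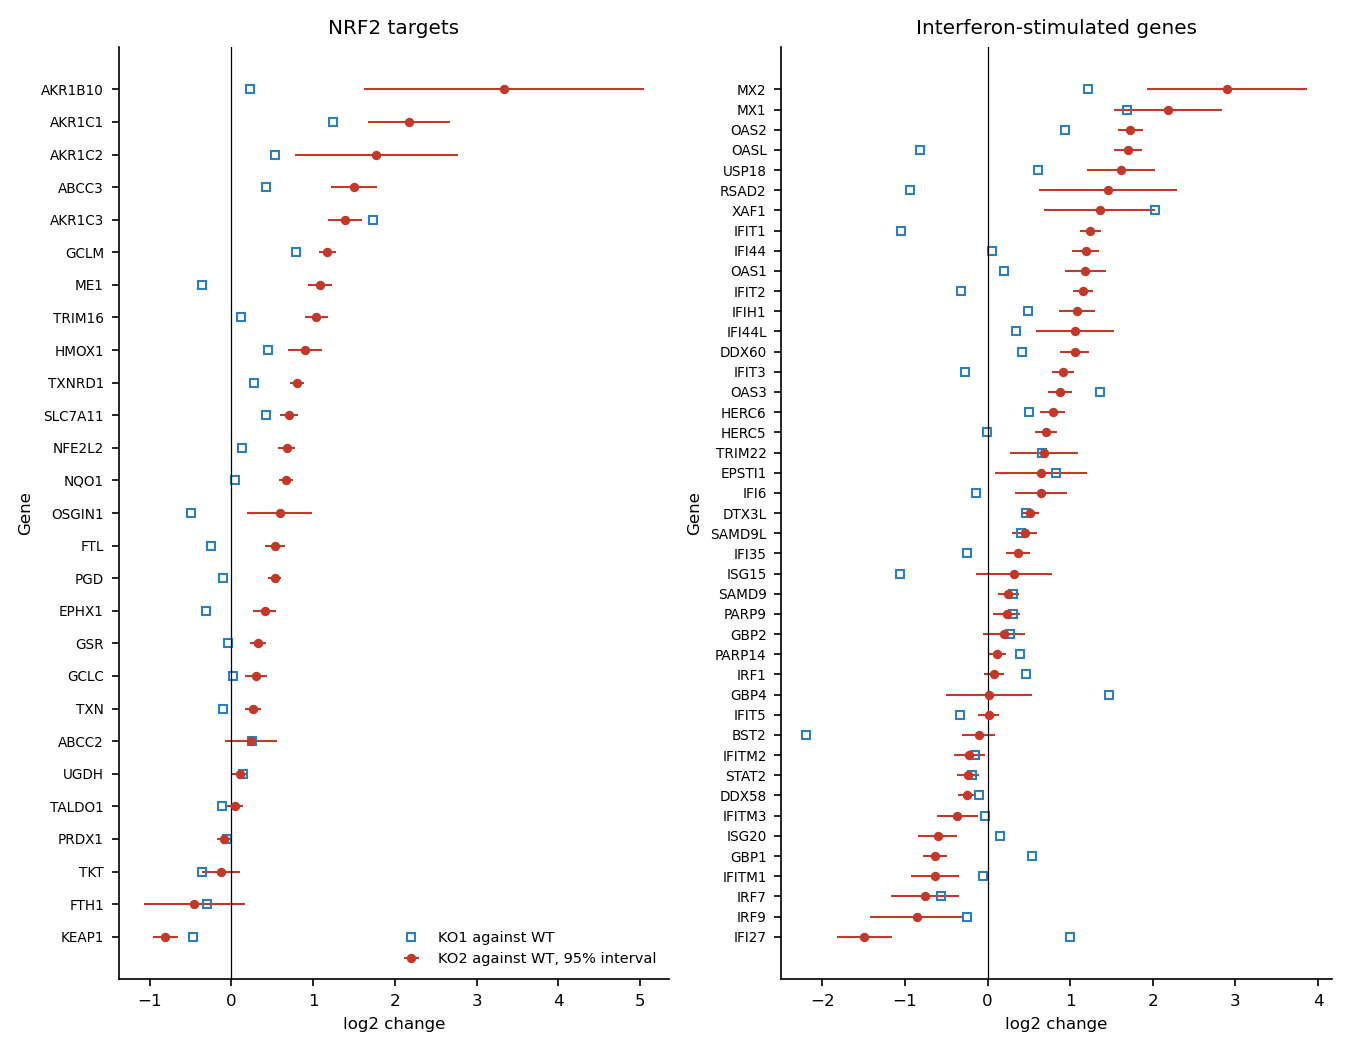
Log2 change from WT of the NRF2 and interferon-stimulated genes in KO2 (red points, with 95% interval) and KO1 (blue squares); 1 tested member of each list is not shown. GCLM lies at 1.18 and KEAP1 at -0.81 in KO2, and OASL at 1.70 in KO2 and -0.82 in KO1.

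Interferon-stimulated genes rose at a higher share than all genes, and fell at a share near that of all genes. Of 44 tested, 26 rose (59.1%), 10 fell (22.7%) and 8 were not called, beside 24.7% of all genes in each direction. The median change was 0.55 in KO2 and 0.23 in KO1. In KO1, where 34.8% of all genes were called against WT, 19 members rose and 10 fell. Of the 41 outside the shifted blocks, 25 rose and 9 fell. Against KO1, 21 were higher in KO2 and 11 lower. The members that rose include sensors and effectors of the response to viral RNA. IFIT1, which binds RNA with a foreign cap, stood at 19.2, 18.01 and 19.4 CPM in WT and 43.5, 45.96 and 44.5 in KO2, with a mean of 9.13 in KO1. OASL, of the oligoadenylate synthetase family, stood at 9.94, 8.98 and 9.85 and 29.2, 32.2 and 32.1 CPM, and 5.44 in KO1. For both genes every KO2 library was above every WT library, by 1.24 ± 0.06 and 1.70 ± 0.08, while the changes in KO1 were -1.05 and -0.82. IFIT2 and IFIT3 rose by 1.15 and 0.91, OAS2 by 1.73, MX1 and MX2, dynamin-like antiviral proteins, by 2.18 and 2.90, and IFIH1 and DDX60, helicases of RNA sensing, by 1.08 and 1.05.

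Among the genes that fell were STAT2 and IRF9, parts of the complex that reads the response element, by 0.24 and 0.85. IRF7, the factor that amplifies the response, fell by 0.76. IFI27, a mitochondrial protein gene, had the lowest change, -1.49 ± 0.15, and GBP1, a guanylate-binding protein gene, changed by -0.64. The membrane proteins IFITM1, IFITM2 and IFITM3, near copies of each other, changed by -0.64, -0.22 and -0.37. ISG15, the ubiquitin-like modifier, was not called (0.32), and neither was BST2 (-0.11).

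The interferon-stimulated response element was looked for in the same windows. Its core, 2 copies of GAAA with any 2 bases between them, was searched on both strands; it lay in 3.65% of the 27305 windows and in 23 of the 33 windows that matched a member, 69.7%; it lay in 12 of the 19 windows of members that rose. Matches are shown for 3 members that rose and for IFI27, which fell, with 20 bases on each side, 5′ to 3′ on the gene's strand and with the match in capitals; it reads in the opposite direction in IFIT1.
IFIT1, chr10:89392487-89392536, plus strand: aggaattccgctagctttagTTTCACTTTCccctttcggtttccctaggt
DDX60, chr4:168318811-168318860, minus strand: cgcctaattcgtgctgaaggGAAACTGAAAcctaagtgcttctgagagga
OAS3, chr12:112938311-112938360, plus strand: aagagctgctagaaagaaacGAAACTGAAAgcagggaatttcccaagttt
IFI27, chr14:94110621-94110670, plus strand: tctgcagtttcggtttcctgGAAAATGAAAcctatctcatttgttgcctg
OAS3, another oligoadenylate synthetase gene, rose by 0.88.

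Beyond regions and pathways, a set of single genes was nearly off in one group and on in the other. EEF1A2, the muscle and neuron form of translation elongation factor 1A that many tumours express, had 2559, 1869 and 1694 counts in WT, 1749, 1301 and 1611 in KO1 and 1 count in each KO2 library. Over pooled counts scaled by library totals, WT was 1667 times KO2 (exact 95% interval 570.2 to 8086, counting error only). CT83, a cancer-testis antigen gene of the X chromosome, had 614, 329 and 316 counts in WT, 540 to 568 in KO1 and 0 in every KO2 library, at least 97.1-fold lower at a floor of 3 counts per library. NRK, a kinase gene on the same chromosome, had 98, 57 and 58 counts in WT and 0 in KO2, at least 16.6-fold lower; KO1 had 0, 1 and 0.

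With at least 50 counts in every KO2 library and at most 3 in every WT library, 4 genes of the tables counted as on in KO2 and near 0 in WT. FMOD, fibromodulin of the collagen matrix, had 103, 105 and 139 counts in KO2 and 1, 0 and 2 in WT, a ratio of 142 (48.1 to 689.9). TMEM178B had 71, 91 and 82 counts against 1, 0 and 1, a ratio of 149 (40.9 to 1240). ATP2A3, a calcium pump of the endoplasmic reticulum, had 69, 80 and 58 against 3, 3 and 3, a ratio of 28.2 (14.6 to 62.4). GALNT12, which starts mucin-type O-glycans, had 54, 87 and 61 against 3, 1 and 2, a ratio of 41.2 (18.6 to 114). KO1 had at most 4 counts of any of the 4 genes in a library.

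Large rises were also seen at higher levels. FAM133A, on the X chromosome, stood at 0.579, 0.428 and 0.556 CPM in WT and at 31.6, 31.2 and 30.7 in KO2, a 58.7-fold rise (5.88 ± 0.14; adjusted p = 1.56e-13), and its mean in KO1, 0.150, was below WT. FKBP10, a prolyl isomerase that helps to fold collagen, rose from 2.81, 3.24 and 3.29 to 28.2, 30.3 and 24.9 CPM. CSF3, the cytokine G-CSF, rose from 1.62, 1.28 and 1.54 to 12.7, 15.9 and 12.3. The KO2 libraries were close to each other in all 3 genes and lay far above both other groups. Genes named for a large change had to show no overlap between KO2 and WT, as 58.8% of all genes did. The genes NPTXR, a receptor for neuronal pentraxins, and RIMS3, a protein of synaptic vesicle release, rose by 2.83 ± 0.10 and 2.84 ± 0.10. KCNQ3, a voltage-gated potassium channel gene, went from 4.04 to 15.3 CPM and NEURL1B, a ubiquitin ligase gene of the Notch pathway, from 7.88 to 30.6. RTN1, a reticulon of the endoplasmic reticulum, and the zinc finger genes ZNF114 and ZNF528 rose by 1.90, 2.15 and 2.00, and each was also above KO1.

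Of other genes with large rises, several differed from KO1 by less. MAMDC2 went from 1.71 to 9.99 CPM with 4.37 in KO1, and RASSF2, a Ras-association domain gene, from 4.78 to 21.9 with 9.80 in KO1. KREMEN1, a receptor that dampens Wnt signals, EFR3B, and PDE9A, a cyclic GMP phosphodiesterase, rose by 2.21, 2.17 and 2.16. TMEM132D-AS1 rose by 3.08 ± 0.08; it is antisense to TMEM132D, and without a stated strand setting reads of the pair cannot be told apart. TRIM16L rose by 1.93 and is a near copy of TRIM16, an NRF2 target that rose by 1.04.

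Genes with large falls include those of surface and matrix molecules. TNFSF18, the ligand of GITR, a costimulatory receptor on T cells, stood at 21.1, 19.6 and 18.7 CPM in WT and 0.497, 0.364 and 0.315 in KO2, and at a mean of 36.8 in KO1. ARMCX2, of an X-linked family of mitochondrial armadillo proteins, stood at 61.2, 64.97 and 63.8 in WT and 3.52, 4.49 and 3.25 in KO2. HAS2, which makes hyaluronan, stood at 33.9, 33.1 and 32.4 and 5.55, 4.46 and 5.03. KO2 kept 1.98%, 5.93% and 15.1% of the WT mean for the 3 genes. A lack of overlap between KO2 and WT was a condition for naming them. UCA1, a long noncoding RNA first described in bladder cancer, fell from 45.9, 47.8 and 47.9 CPM to 4.73, 4.33 and 3.93 (-3.45 ± 0.07), while KO1 had a mean of 109; the gene lies in the block CCDC130 to MYO9B, whose median was -0.90.

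TIE1, PTPRB, RELN and VIPR1, an orphan receptor kinase and a receptor phosphatase of vessel walls, a secreted guidance protein and a neuropeptide receptor, fell by 2.24, 2.43, 2.28 and 2.41. DMBT1, a secreted scavenger receptor gene, fell by 2.44 and MYCT1 by 3.24. LRATD2 and the long noncoding RNA AC006452.1 fell by 2.35 and 2.98, and UBBP4, a ubiquitin pseudogene whose reads may be shared with its parent gene, by 2.63. In KO1 the changes of TIE1, MYCT1, RELN, LRATD2 and AC006452.1 were 0.85, 1.01, 0.46, 0.45 and 0.78.

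**Figure D4:**
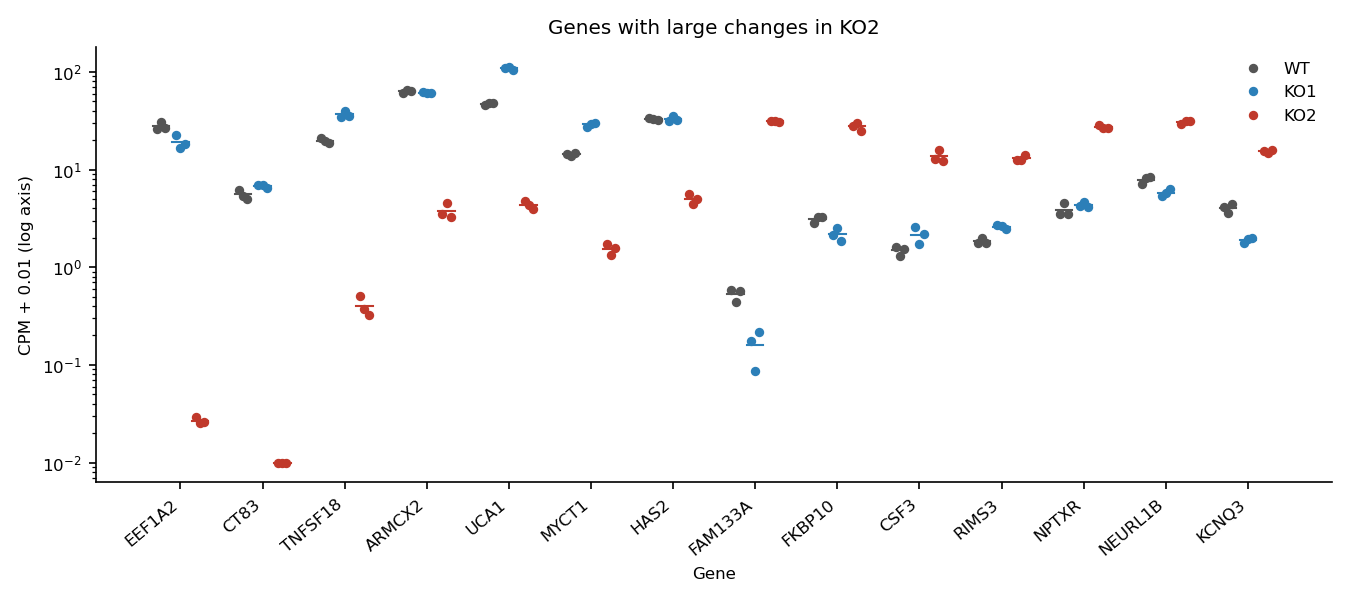
CPM (plus 0.01, log axis) of 14 genes with large changes; points are the 9 libraries by group and the line is the group mean. FAM133A lies at 30.7 to 31.6 CPM in KO2 and below 0.6 in WT, and EEF1A2 is at the bottom of the axis in KO2.

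Of the 50 clustered protocadherins, neuronal cell-surface proteins made from neighbouring genes on chromosome 5, 22 were tested. Of these 15 rose, 68.2% beside the 24.7% of all genes, and 1 fell, with a median of 0.85 in KO2 and 0.36 in KO1. The block that holds them had a median near 0, 0.04. Levels were low: PCDHB16 stood at 0.122, 0.0494 and 0.159 CPM in WT and 2.75, 2.96 and 2.43 in KO2, and PCDHGB1 at 2.90, 2.93 and 2.92 and 5.51, 5.30 and 6.61. PCDHB14 rose by 1.57 ± 0.21, and PCDHB4, the 1 that fell, stood at 0.315, 0.214 and 0.270 in WT and 0.0383, 0 and 0 in KO2. When genes had to reach 1 CPM in 3 libraries, 9 rose and 0 fell. Either filter can keep a gene that is near 0 in 1 group through another group where it is higher. The counts and the median are therefore a description of the members that passed. Near copies in this family may share reads. Of 14 tested HOX genes, which set positional identity, 6 rose and 0 fell: HOXA13 (1.60), HOXB7 (0.90), HOXD3 (0.81), HOXB3 (0.64), HOXD4 (0.40) and HOXB9 (0.17). The other 8 were not called, and the lowest of them, HOXD1, stood at -0.77. Of the 6 that rose, HOXA13, HOXD3 and HOXD4 lie in high blocks of chromosomes 7 and 2; of the 10 tested members outside the shifted blocks 3 rose, or 30%, near the 24.67% of all genes outside them.

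**Figure D5:**
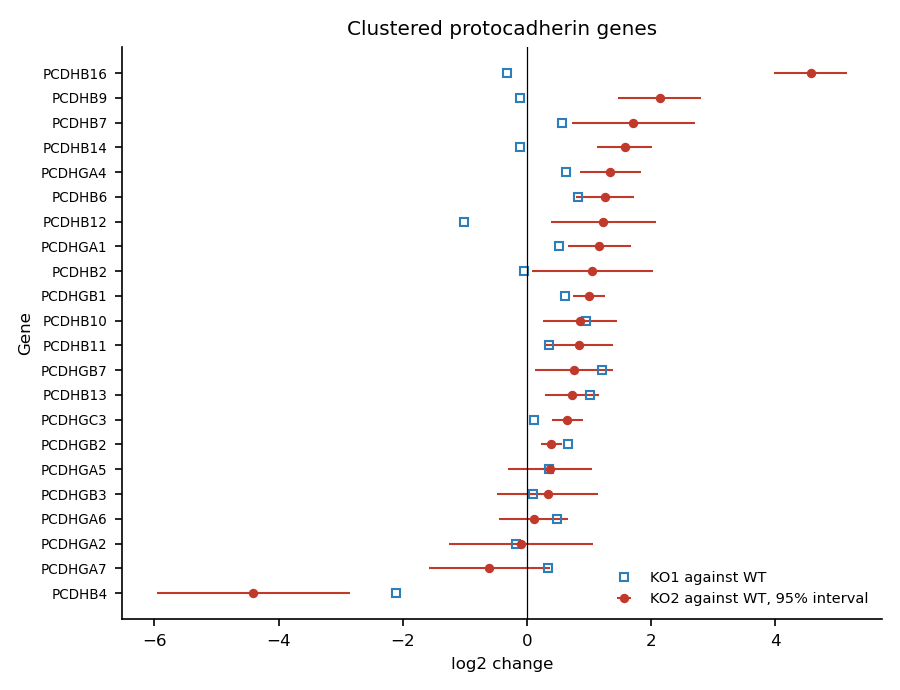
Log2 change from WT of the tested clustered protocadherins in KO2 (red points, with 95% interval) and KO1 (blue squares). PCDHB16 lies at 4.58 and PCDHB4 at -4.41 in KO2.

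Ribosomal protein genes of the cytosol went down. Of 66 tested, 0 rose and 43 fell, with a median of -0.24 in KO2 and -0.31 in KO1; against KO1, 13 were higher and 13 lower. Of the 13 in low blocks 12 fell, and of the 52 outside the shifted blocks 30 fell and 0 rose. The mitochondrially encoded subunits of the respiratory chain went the other way: of 13, 7 rose and 0 fell, with a median of 0.44. MT-CYB, the cytochrome b gene, rose by 0.58 ± 0.08, from 1395, 1460 and 1329 CPM to 2365, 1976 and 1918, and MT-CO2 and MT-CO3 rose by 0.50 and 0.53. KO2 replicate 1 was the highest library; without it the median of the 13 was 0.34, and without WT replicate 1 or without WT replicate 3 the number that rose was 4. Mitochondrially encoded genes took 3.52 to 3.83% of counts in WT and 4.49 to 5.39% in KO2.

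Among 24 ERK output and feedback genes, 10 rose and 6 fell, with a median of 0.07. EGFR, the receptor of epidermal growth factors and taken from the list of breast cancer line markers, went from 519, 519.5 and 542 CPM in WT to 801, 795 and 856 in KO2, with a mean of 459 in KO1. The gene lies in the high block INHBA to SUMF2 of chromosome 7, whose median was 0.33 in KO2 and -0.24 in KO1. Of the EGFR ligands in the ERK list, TGFA rose from 53.9, 54.4 and 53.7 to 132, 129.9 and 137 CPM and AREG fell from 12.7, 12.7 and 11.8 to 4.92, 4.28 and 3.53. For neither of the 2 did the groups overlap, and in KO1 their means were 59.7 and 18.03. The ligand gene HBEGF rose by 0.19, and EREG was not called (0.19). SPRED3, an inhibitor of the pathway, rose by 1.02, and MAP2K1 fell as given above.

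Mesenchymal genes, which mark the motile state typical of this line, went up more often than down. Among 16 tested, 8 rose (50%), 1 fell (6.25%) and 7 were not called, beside 24.7% of all genes in each direction. Their median was 0.28 in KO2 and 0.09 in KO1. In KO1, where 34.8% of all genes were called against WT, 5 rose and 0 fell. Against KO1, 5 were higher in KO2 and 4 lower. SNAI2, a transcription factor that represses epithelial genes, rose by 0.79 ± 0.07, CD44, the hyaluronan receptor, by 0.78 ± 0.04, FN1, fibronectin, by 0.38 and PRRX1 by 1.94. S100A4 fell by 1.81. The epithelial junction genes were split, with 5 up and 7 down of 22, among them DSP, desmoplakin, at -0.90. Of 10 tested keratins 1 rose and 3 fell, KRT7 by 0.70. Of 15 integrins 4 rose, such as ITGA2 (0.73) and ITGAV (0.69; in the high block WIPF1 to NAB1), and 3 fell, such as ITGB4 (-1.01). Collagens and matrix proteins gave 13 up and 12 down of 40. TNC, tenascin C, went from 118 to 229.9 CPM, and TGFBI and FBLN5 rose by 1.12 and 1.14. TNC lies in the high block TNFSF15 to GAPVD1 of chromosome 9, whose median was 0.45. Genes of the actin cytoskeleton gave 12 up and 12 down of 47, with SRF, the factor that drives actin genes, at -0.90 and RAC1 at 0.51. YAP and TEAD targets gave 9 up and 9 down of 22: ANKRD1 went from 368 to 690.2 CPM, with 216 in KO1.

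Among cell cycle genes, those of mitosis rose at a higher share than all genes. Of 30 mitosis genes 15 rose (50%) and 7 fell (23.3%), beside 24.7% of all genes in each direction. Their median was 0.12, and against KO1 15 were higher and 5 lower. The risers include KIF11, a spindle motor (0.46), CENPF (0.44) and TOP2A, topoisomerase II alpha (0.40). Of the 7 that fell, 5 lie on chromosome 15, CCNB2, BUB1B, KIF23, NUSAP1 and PRC1, and the other 2 were AURKA (-0.15) and AURKB (-0.16). Of 38 genes of the G1/S step and replication 8 rose and 10 fell; CCNE1, cyclin E1, rose by 0.78. Of 25 p53 targets 11 rose and 5 fell: BTG2, an antiproliferative gene (2.31), PHLDA3, an inhibitor of AKT (1.70, with -1.33 in KO1), and the death receptor FAS (1.26) rose, while BBC3, the apoptosis effector PUMA, fell by 1.36. MDA-MB-231 carries mutant p53, so the list is named for what its genes respond to in other cells.

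Of 30 genes of interstrand crosslink repair, the pathway of FANCD2, 10 rose and 12 fell, with a median of -0.05. FANCI, which pairs with FANCD2, fell by 0.48 and lies on chromosome 15. FANCE, a part of the core complex that ubiquitinates the pair, changed by -0.38, FAAP100 by -0.91 and REV1, a translesion polymerase gene, by -0.58. Among those that rose were FANCF, another part of the core complex, by 0.66, and ERCC4, an endonuclease that cuts at the crosslink, by 0.39. Histone genes had a median of -0.25 in KO2 and 0.39 in KO1, with 5 up and 4 down of 21 against WT and 0 up and 7 down against KO1. HIST1H2AC fell by 1.15 and HIST1H1C by 0.56; with the trend in GC content removed the median was -0.06.

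Markers of other cell types were measured as a check. Of 20 leukocyte markers 10 were tested, of which 3 rose and 0 fell; their summed level was 13.8 to 15.4 CPM in WT, 18.9 to 22.2 in KO1 and 39.6 to 43.4 in KO2. LAPTM5, a lysosomal membrane protein gene of blood cells, made up most of it, at 9.70 CPM in WT and 33.7 in KO2. CD53 had 65, 75 and 100 counts in KO2 against 21, 9 and 4 in WT. The third was CORO1A (0.71), whose call was lost without WT replicate 1. The defining markers MS4A1, TYROBP and AIF1 were at 0 in all 9 libraries, and PTPRC, the common leukocyte antigen CD45, had 3 to 12 counts in KO2 and 4 to 22 in WT. Of 9 tested neural markers 5 rose and 0 fell, such as L1CAM (0.52) and NRXN3 (0.60). Of 5 endothelial markers 1 rose and 2 fell, and of 3 fibroblast markers 2 rose and 1 fell. Of 12 markers of breast cancer lines 4 rose and 6 fell, among them CAV1, caveolin-1, from 812 to 556 CPM.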

How the data were processed

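The authors deposited raw read counts per gene symbol, in whole numbers without normalization, for 9 libraries. RNeasy columns gave the RNA and the TruSeq kit the libraries, per the labels' protocols. The submitters' processing notes list HISAT2 and Trim Galore, and as builds GRCm38, mm10 and hg38, with no role for any of them; their versions, the read counter, the annotation and the handling of strand were not given in the sources used here. Overlapping and near-identical genes can therefore share reads.

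From the deposited counts, edgeR 4.0.16 (R 4.3.3) with filterByExpr, TMM factors and robust quasi-likelihood fits gave 1 mean per group over all 9 libraries, tested at a Benjamini-Hochberg adjusted p under 0.05. A standard error is the log2 change divided by the square root of the F value. The common biological coefficient of variation was 7.46%. Libraries of a group differed from each other by more than sampling noise, with a chi-square of 5.85 to 28.7 for each degree of freedom. Where a gene had 0 counts, a floor of 3 counts per library was used; floors and intervals cover counting error only. Positions and GC content came from GENCODE 29, which matched 55878 of 61155 symbols.

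The 38 gene lists and the comparison itself were chosen with earlier results of these data known. Named genes are FBXL12 and FANCD2; up to 12 rising and 12 falling genes by size of change against WT, and against both other groups, with mean log2 CPM of at least 2 and no overlap; up to 4 per list and 3 per extreme block by the smallest p; and up to 8 per direction with at most 3 counts in one group and at least 50 in the other. Genes named in an earlier account of the series were passed over, and some genes are not reported here by name. Further list members and genes of the chromosome 15 stretch were named for their role after their values were seen. The fit was tested on simulated counts. Alternatives were another scaling, DESeq2 1.42.0, limma-voom (limma 3.58.1), other filters, 6 libraries alone, a replicate block, removal of the GC trend (lowess, span 0.3) and leaving out each library.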

Additional observations from a re-analysis of the deposited data

Results flagged for a closer look

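For the genes below, KO2 and KO1 differed from WT in opposite directions and differed from each other by edgeR's quasi-likelihood test with Benjamini-Hochberg adjustment. The values are log2 differences. FANCD2 was lower in KO2 than in KO1, by -0.42, having moved by -0.25 in KO2 and 0.18 in KO1. Its neighbours on chromosome 3 did the same. The block TRNT1 to IQSEC1, which holds FANCD2, had medians of -0.44 in KO2 and 0.15 in KO1. Between the clones the block's median was -0.56, and 38 of its 40 genes were lower in KO2. Among genes higher in KO2 than in KO1, FAM133A differed by 7.67, with 5.88 in KO2 and -1.79 in KO1. TMEM132D-AS1 differed by 4.07 and FKBP10, the collagen chaperone gene, by 3.68, with -0.99 and -0.51 in KO1. The channel gene KCNQ3 differed by 3.02, with -1.10 in KO1. NEURL1B, ZNF528 and RTN1 differed by 2.41, 2.39 and 2.24, with -0.44, -0.39 and -0.35 in KO1.

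Among genes lower in KO2 than in KO1, the GITR ligand gene TNFSF18 differed by -6.57, with 0.89 in KO1. The long noncoding RNAs UCA1 and AC006452.1 differed by -4.66 and -3.76, with 1.21 and 0.78 in KO1. MYCT1 differed by -4.25 and TIE1 by -3.09, with 1.02 and 0.85 in KO1. UBBP4, LRATD2 and RELN differed by -2.98, -2.80 and -2.75, with 0.35, 0.45 and 0.46 in KO1. The changes of both clones share the WT libraries, so a WT library that stood apart would enter both. The differences between the clones do not use WT levels, but their tests share the estimate of the spread with WT.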

How the results depend on the processing

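Of 196 named genes 191 were called. Without FBXL12 and FANCD2, which are given below, these had 3399 values under the 18 alternative settings. Of the values 3384 kept direction and call, 15 kept the direction but lost the call and 0 changed sign. Most named genes were picked from the main fit by size of change or smallest p, so such stability was largely fixed in advance. The 15 belong to 8 genes, KRT8, KRT15, HOXD4, HOXB9, MAGED2, MAGEA3, HIST1H2BD and CORO1A. With at least 1 CPM in 3 libraries, which tests fewer genes, 515 rose and 350 fell at least 2-fold. Over fits without 1 library, 3904 to 4553 genes rose and 3767 to 4807 fell against WT, 1037 to 1129 rose and 625 to 798 fell at least 2-fold, and 3758 to 4296 were higher and 3849 to 4396 lower than in KO1. FBXL12 ran from -1.97 to -1.84 and FANCD2 from -0.29 to -0.21.

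Block medians ran as follows without 1 library: PCLAF to LRRC49 -1.29 to -1.22, CCDC130 to MYO9B -0.96 to -0.83, RPS28 to YIPF2 -0.92 to -0.86, WIPF1 to NAB1 0.51 to 0.57, and, for another high block of chromosome 2, 0.49 to 0.54. DOCK10 to ILKAP ran from 0.51 to 0.56. With the GC trend removed, RPS28 to YIPF2 was -0.66, CCDC130 to MYO9B -0.59, that block 0.48 and DOCK10 to ILKAP 0.51; with upper quartile scaling the last 2 were 0.56 and 0.57. The cause was not tested. Of 684 list medians 44 moved by 0.1 or more; that of the interferon-stimulated genes was 0.41 at the 1 CPM filter.

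Same-numbered libraries did not all deviate together: over 9 pairs r ran from -0.48 to 0.46, with 5 over 0.1. Pairs were to be accepted only if every r passed 0.1, so the main fit has no pairing. Whether same-numbered libraries share a culture or a day cannot be told from these values. With the replicate number as a block 4178 genes rose and 4124 fell, against 4382 and 4394. With the block and the GC trend removed the 4 block medians above were -0.66, -0.59, 0.48 and 0.51. Leaving list members in shifted blocks out was chosen after seeing the data; 0 NRF2 list members then fell, against 1.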

Other observations

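Metabolic lists differed from each other in KO2. Of 20 tested genes of fatty acid synthesis and desaturation 13 rose (65%) and 4 fell (20%), beside 24.7% of all genes in each direction. Their median was 0.17, and against KO1 8 were higher and 5 lower. ACSS2, which makes acetyl-CoA from acetate, rose by 0.73 and ACACA, which commits acetyl-CoA to fatty acids, by 0.58. FASN, fatty acid synthase, changed by -1.03 and SREBF1, the factor that drives the pathway, by -0.70. Of 25 cholesterol synthesis genes 7 rose and 9 fell. Glycolysis genes gave 4 up and 6 down of 23, with PKM, on chromosome 15, at -0.49, and HK1 at 0.46. Hypoxia-inducible genes gave 5 up and 10 down of 22 in KO2, and against KO1 5 were higher and 13 lower: VEGFA, the vessel growth factor, changed by -0.67, DDIT4, an inhibitor of mTORC1, by -1.56 and EGLN3, an oxygen sensor, by 2.62. ATF4 and amino acid response genes gave 8 up and 10 down of 28, and lysosomal genes 14 up and 10 down of 35, with the calcium channel gene MCOLN1 at -1.17 and the protease gene CTSS at 1.09.

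Among signals to other cells, NF-kB targets and cytokines gave 12 up and 6 down of 29 against WT, with a median of 0.12; against KO1 5 were higher and 17 lower, and the KO1 median was 0.57. CXCL1, a neutrophil chemokine, rose by 1.42 and IL11 went from 53.8 to 87.8 CPM. Antigen presentation genes gave 3 up and 4 down of 24, with NLRC5, which switches on class I genes, at -0.62. Prostaglandin and leukotriene genes gave 6 up and 5 down of 16: TBXAS1, thromboxane synthase, rose by 1.45 and PTGES, a prostaglandin E synthase, changed by -0.84. Wnt pathway genes gave 11 up and 8 down of 29, such as the transcription factor gene TCF7 (1.21) and the ligand gene WNT7B (-1.11). Notch pathway genes gave 5 up and 6 down of 19, with NOTCH1 at -0.86 and its ligand gene JAG1 at -0.40. Axon guidance genes gave 15 up and 20 down of 49, among them SEMA7A (-1.39, on chromosome 15) and the receptor gene EPHA4 (1.07, in a high block of chromosome 2). Cancer-testis genes gave 3 up and 3 down of 15, and metallothioneins 1 up and 1 down of 5.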
